A study of Mus musculus with 2 samples.

Results

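Liver handles glucose in both directions, and 39 genes of glycolysis, gluconeogenesis, fructose and glycogen metabolism were followed here by gene symbol. They comprise the gluconeogenic enzymes, the glycolytic enzymes with their glucose transporters and regulators, the enzymes of pyruvate handling, ketohexokinase for fructose, and the enzymes and targeting subunits of glycogen metabolism. Of these, 35 had a probe, out of 19318 genes with a symbol on the array, and all 35 gave signal above background on both arrays, so none was lost to the filter on dim genes. Each was read by 1 probe, and 26 lay at or above the median level. Hk3, Gpi1, Pfkfb1 and Eno1 were not analysed here.

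RNA came from liver of mice aged 24 weeks and was read on 2 single-colour microarrays. The control carried Twist2-Cre, and the other liver, here called CKO, carried Twist2-Cre with A20fl/fl, so both carried the recombinase. Twist2-Cre acts in mesenchymal lineages, so the deletion of A20 (Tnfaip3, a restraint on NF-kB signalling) is not directed at hepatocytes, which hold most of the enzymes described below. The sources used here do not state the strain or how many animals gave each RNA. With 1 array per genotype there is no replicate, no error between animals and no test, and every difference below compares these 2 arrays, whose number limits the precision.

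Hepatocytes release glucose by gluconeogenesis and glycogen breakdown during fasting and store or burn it after feeding. The opposing routes share most enzymes and differ at a few steps, among them hexokinase against glucose-6-phosphatase, phosphofructokinase against fructose-1,6-bisphosphatase, and pyruvate kinase against pyruvate carboxylase with phosphoenolpyruvate carboxykinase. Fructose enters through ketohexokinase, below phosphofructokinase. Many of these genes respond to glucagon through cyclic AMP, to insulin, and to sugar through the carbohydrate response factor ChREBP (Mlxipl) with its partner Mlx. In bulk tissue, fewer cells of a type and less RNA per cell cannot be told apart.

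The genes that differed most between the arrays belonged to different steps, and the windows before their RefSeq start sites (GRCm38.p6) are shown for 5 of the 7 members with the largest differences, to compare the letters before genes on opposite sides. Gys2 had no window in the table, and the 3 windows of Slc37a4, 2 of which held the cyclic AMP core described next, are not printed. Each is 250 bases long and runs 5' to 3' on the gene's strand. Capitals mark CACGTG (the E-box core), TGACG or its reverse CGTCA (the core of the cyclic AMP response element), and TGTTTAC or its reverse GTAAACA (forkhead), searched on both strands. The windows are Khk at chr5:30921309-30921558 (+), Pck1 at chr2:173152823-173153072 (+), G6pc at chr11:101367466-101367715 (+), Hk2 at chr6:82774455-82774704 (-) and the upstream one of 2 starts of Ldha at chr7:46845554-46845803 (+).
Khk: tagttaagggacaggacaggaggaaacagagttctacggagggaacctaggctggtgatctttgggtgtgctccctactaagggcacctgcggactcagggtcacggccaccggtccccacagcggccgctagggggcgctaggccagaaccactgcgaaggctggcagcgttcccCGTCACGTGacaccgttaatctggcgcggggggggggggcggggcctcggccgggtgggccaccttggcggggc
Pck1: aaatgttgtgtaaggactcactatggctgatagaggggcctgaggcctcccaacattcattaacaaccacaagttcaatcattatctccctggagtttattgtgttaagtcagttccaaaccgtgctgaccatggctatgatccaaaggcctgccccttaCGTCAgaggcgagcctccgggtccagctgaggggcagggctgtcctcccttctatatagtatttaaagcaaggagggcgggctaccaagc
G6pc: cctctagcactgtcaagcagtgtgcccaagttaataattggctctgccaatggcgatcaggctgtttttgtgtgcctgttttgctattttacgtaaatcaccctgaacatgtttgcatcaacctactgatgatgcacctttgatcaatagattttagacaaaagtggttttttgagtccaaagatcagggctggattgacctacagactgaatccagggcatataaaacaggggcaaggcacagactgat
Hk2: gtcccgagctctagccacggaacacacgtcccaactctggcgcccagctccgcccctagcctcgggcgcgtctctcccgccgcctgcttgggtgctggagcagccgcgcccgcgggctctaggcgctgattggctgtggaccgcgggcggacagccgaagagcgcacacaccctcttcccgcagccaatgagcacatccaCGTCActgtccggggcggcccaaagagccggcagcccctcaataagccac
Ldha: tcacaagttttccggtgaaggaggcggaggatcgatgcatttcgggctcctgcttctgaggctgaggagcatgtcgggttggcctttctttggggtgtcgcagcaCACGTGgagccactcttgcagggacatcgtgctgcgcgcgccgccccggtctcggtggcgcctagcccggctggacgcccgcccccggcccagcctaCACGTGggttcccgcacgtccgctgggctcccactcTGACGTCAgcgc
The Pck1 window held CGTCA with its first letter 90 bases before the start, and the Hk2 window held it at 50. In the Khk window CGTCA at 74 overlapped CACGTG at 71, and the Ldha window held CACGTG at 145 and 48 and both orientations of the cyclic AMP core, overlapping, at 12 and 9. The window of the second Ldha start, not printed, held TGACG at 143. None of the 3 motifs was found in the G6pc window, which says only that these letters are not in it. Over 57 windows of 37 members, CACGTG was in 10.5%, the cyclic AMP core in 19.3% and the forkhead letters in 1.75%, beside 6.02%, 17.8% and 3.17% of all 32851 promoter windows of this length. Members higher and members lower in the CKO liver both held matches, and a match is a description, not a binding site.

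As a set, the members were at similar levels on the 2 arrays, and 7 differed by 5 to 4 or more. The ratio given for a gene is its normalized log2 level in CKO minus that in control, so positive values mean higher in CKO. An offset of 50 added to each intensity draws the ratios of dim genes toward 0. The threshold of 5 to 4 is a log2 ratio of 0.32. Deposited intensities, which are linear units above the blank spots, are given first for each gene. At or beyond this threshold, 4 members were higher (Hk2, Pck1, Gys2 and Ldha), beside 4.25% of all 14143 genes above background on both arrays. On the lower side were 3 (Khk, G6pc and Slc37a4), beside 2.40% of all genes. Members are brighter than most genes, and within the brighter part of all genes (those from the median level up), where all 7 lie, the shares were 6.97% higher and 4.69% lower. Past 1.5-fold there was 1 member, Hk2, on the higher side (1.70% of all genes, 3.03% of the brighter ones) and 0 on the lower side (0.417% and 0.806%). Past 2-fold there were 0 members on this scale, beside 0.636% of all genes higher and 0.0778% lower, and 1.27% and 0.156% of the brighter ones. The median ratio of the 35 members was 0.04, that of all genes -0.02, and the median absolute ratio 0.14 against 0.07. Among the brighter genes alone the median absolute ratio was 0.16 for 26 members and 0.12 for all genes.

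**Figure D1:**
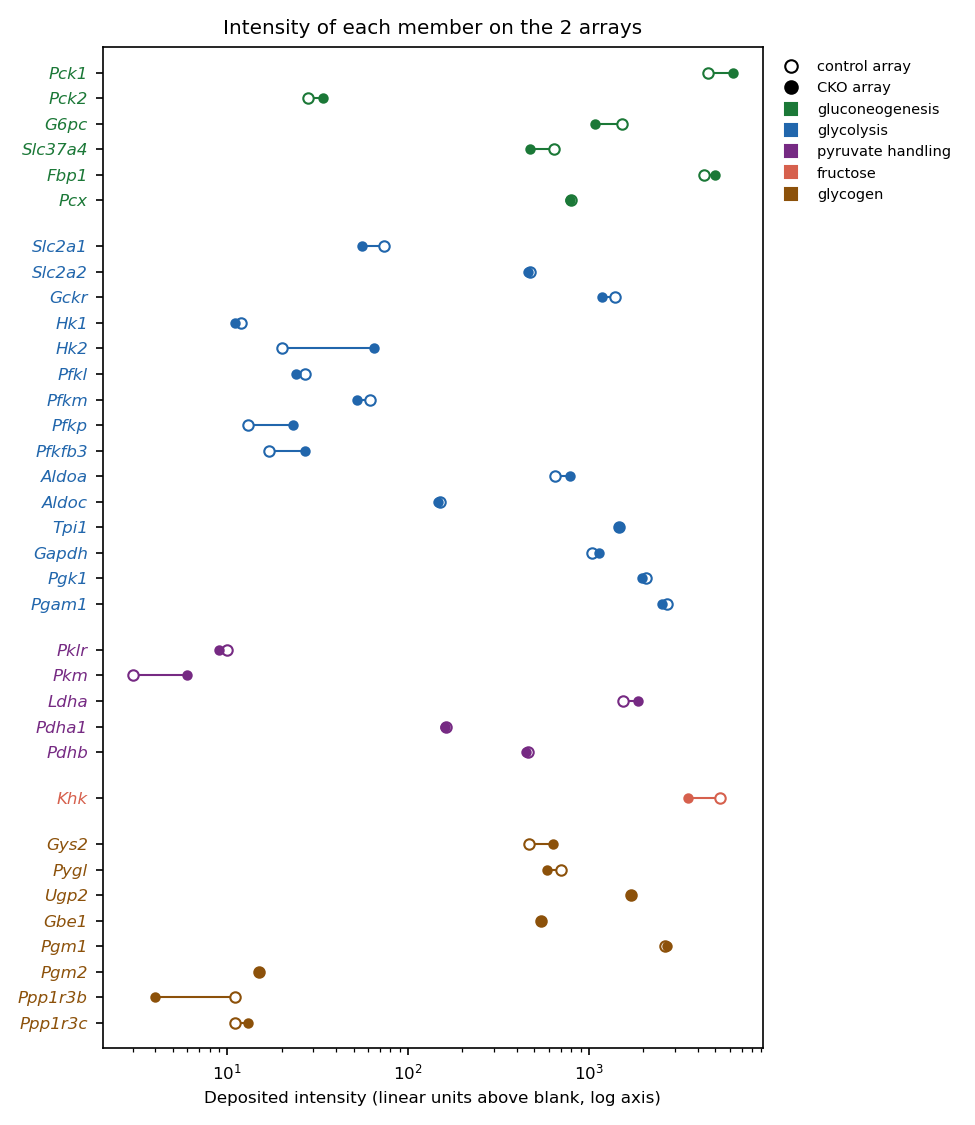
Deposited intensity of each of the 35 measured members on the control array (open circles) and the CKO array (filled circles), 1 array each, on a log axis and coloured by role. Most pairs nearly coincide, while Hk2 (20 and 65) and Ppp1r3b (11 and 4) are far apart at low intensity and Khk (5281 and 3541) is apart at high intensity.

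A guide to error exists only within arrays. Positive control spots give an SD of 0.22 to 0.24 for a log2 ratio of single spots, and probes of the same gene differed by 0.13 (SD, 716 genes). Beyond the larger of the former lay 9 members, and 3, Hk2, Pck1 and Khk, were beyond it by a factor of 2 or more. The share of all genes past these limits was not counted, so these numbers do not set members apart from other genes. Each ratio was also placed among the 500 genes nearest in level, as a description. The ratios of these neighbours had an SD of 0.23 for Hk2 and 0.31 for Pck1 and Khk.

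**Figure D2:**
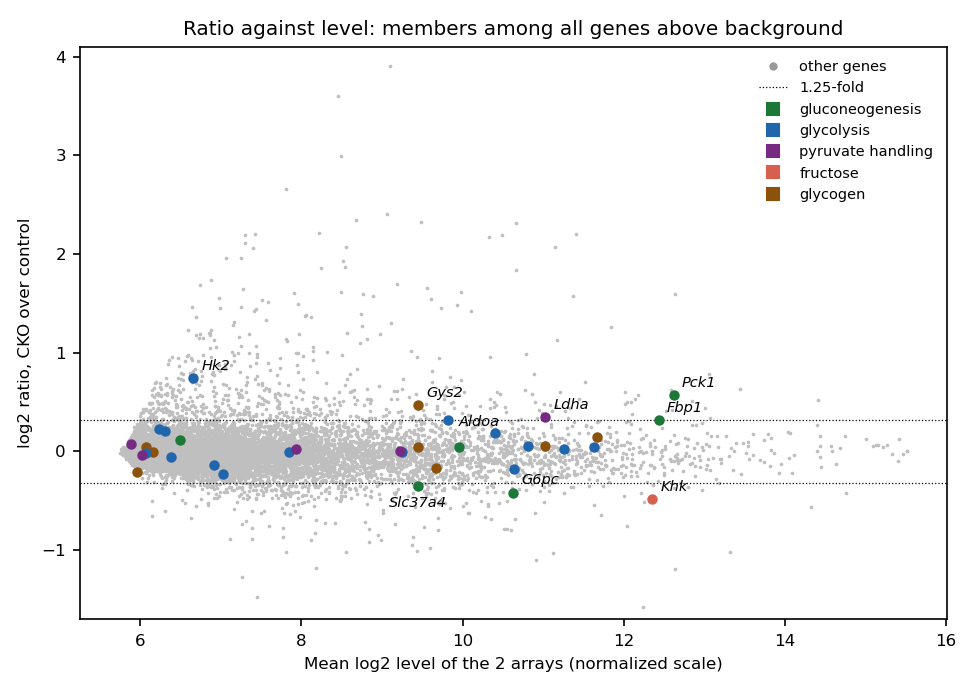
log2 ratio of CKO over control against mean log2 level on the normalized scale, with the 35 members in colour by role among all 14143 genes above background (grey). Dotted lines mark the 5 to 4 threshold; members past or close to them are named, with Hk2 (0.74) the highest and Khk (-0.48) the lowest.

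The gluconeogenic genes differed in opposite directions within the route. Pck1, the cytosolic phosphoenolpyruvate carboxykinase that commits oxaloacetate to glucose, had intensities of 4584 (control) and 6276 (CKO). It was higher in the CKO liver by 0.57, or 1.49-fold, above 483 of its 500 neighbours in level. Fbp1, fructose-1,6-bisphosphatase, read 4346 and 5013, a ratio of 0.32 that is just under the threshold at 1.247-fold, and above 458 of 500. These genes, at middle steps of the route, were thus both on the higher side.

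The last step, which releases free glucose in the endoplasmic reticulum, went the other way. G6pc, the catalytic subunit of glucose-6-phosphatase, had intensities of 1519 and 1088, and Slc37a4, the transporter that carries glucose-6-phosphate to it, 639 and 471. Their ratios were -0.42 and -0.35, below 478 and 464 of 500 neighbours. Both parts of the glucose-6-phosphatase system were therefore lower on the CKO array while Pck1 and Fbp1 were higher. When the scanner's value for the surroundings of each spot (its local background) was subtracted instead of the blank level, G6pc (-0.17) and Slc37a4 (-0.12) kept their sign but were no longer past the threshold. Entry into the route was near equal: pyruvate carboxylase Pcx read 798 and 788 (0.04). The mitochondrial carboxykinase Pck2 was dim at 28 and 34 (0.12). The subgroup's median of 0.08 hides this split, with 4 higher and 2 lower of 6 and a range from -0.42 to 0.57.

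Among the first steps of glycolysis, Hk2 stood out. Hk2, a high-affinity hexokinase that healthy hepatocytes express little, had intensities of 20 and 65, which is 3.25-fold in the deposited values. On the normalized scale its ratio was 0.74, or 1.68-fold, above 488 of 500 neighbours, and with the local background subtracted it was 0.28, under the threshold. The other hexokinase probes read no higher in CKO. Hk1, the housekeeping form, was 12 and 11 (-0.02), and Hkdc1 was 5 and 3 (-0.06). Blank spots vary by about 1.0 (SD, control array) to 1.19 (CKO array) in these units, which covers spot noise at no signal and not the spread between livers. Gckr, a regulatory protein of hepatic glucose phosphorylation, was 1404 and 1182 (-0.18). The hepatocyte glucose transporter Slc2a2 was 473 and 461 (-0.00). Slc2a1, the transporter of most other cells, was 74 and 56 (-0.23), below 455 of 500.

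Phosphofructokinase, the rate-setting step, is encoded by a gene each for liver, muscle and platelet forms. Pfkl read 27 and 24 (-0.06), Pfkm 62 and 52 (-0.14) and Pfkp, the platelet form, 13 and 23 (0.22, above 474 of 500). Pfkfb3, an inducible enzyme that makes the phosphofructokinase activator fructose-2,6-bisphosphate, read 17 and 27 (0.21, above 470 of 500). Of these 3 forms the platelet one alone had a ratio above 0. In the deposited values Pfkp was 1.77-fold and Pfkfb3 1.59-fold higher, with differences of about 10 units at intensities well below those of the bright enzymes.

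The later steps of glycolysis were near equal on both arrays, apart from Aldoa and Ldha. Aldoa, the aldolase of muscle and most non-hepatic cells, was 652 and 787 (0.32, 1.249-fold, above 456 of 500; -0.10 with the local background subtracted), while Aldoc, the brain form, was 150 and 147 (-0.01). Triosephosphate isomerase Tpi1 was 1470 and 1469, phosphoglycerate kinase Pgk1 2070 and 1972, and the mutase Pgam1 2693 and 2554. Their normalized ratios were 0.05, 0.02 and 0.05, and signs this close to 0 turned in the deposited values. Gapdh, a common reference gene, was 1046 and 1143 (0.19, above 424 of 500). The subgroup's median over 15 genes was 0.02, with 8 higher and 7 lower.

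Of the genes at the pyruvate branch, Ldha differed most. Ldha, the lactate dehydrogenase subunit that favours lactate formation, was 1535 and 1880, a ratio of 0.34 (1.27-fold) above 466 of 500 neighbours. With the local background subtracted the sign turned (-0.16). The subunits of the pyruvate dehydrogenase complex did not differ in this way: Pdha1 read 162 and 160 (0.02) and Pdhb 463 and 451 (0.01). Both pyruvate kinase probes were close to background. Pklr, the liver form, read 10 and 9 (-0.04), and Pkm, the form of most other tissues, 3 and 6 (0.07, above 465 of 500). At these intensities the Pkm difference spans only a few blank SDs.

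Ketohexokinase was the member with the lowest ratio. Khk, which phosphorylates fructose, read 5281 (control) and 3541 (CKO). The ratio was -0.48, or 1.40-fold lower, below 489 of 500 neighbours. Of the genes listed for later steps of fructose breakdown, Tkfc and Glyctk were lower as well, while Slc2a5, a fructose transporter listed with the glycolysis genes, read 31 and 38 (0.11).

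Glycogen genes were near equal except for the synthase and a targeting subunit. Gys2, the liver glycogen synthase, read 464 and 630, a ratio of 0.47 (1.38-fold) above 477 of 500. Pygl, the liver phosphorylase that breaks glycogen down, read 702 and 587 (-0.17, below 358 of 500). Synthase and phosphorylase thus lay on opposite sides, with the difference in Pygl smaller than the error of single spots. The enzymes between them were level: Ugp2, which makes UDP-glucose, read 1707 on both arrays, and the branching enzyme Gbe1 545 and 541. The phosphoglucomutase Pgm1 read 2646 and 2709 (0.14) and Pgm2 15 on both.

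Ppp1r3b, the liver subunit that brings protein phosphatase 1 to glycogen and so activates the synthase, read 11 and 4. Its normalized ratio of -0.21 was small because the offset draws dim genes together, yet it was below all 500 neighbours in level. The related subunit Ppp1r3c read 11 and 13 (0.04). The median of the 8 glycogen genes was 0.04.

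**Figure D3:**
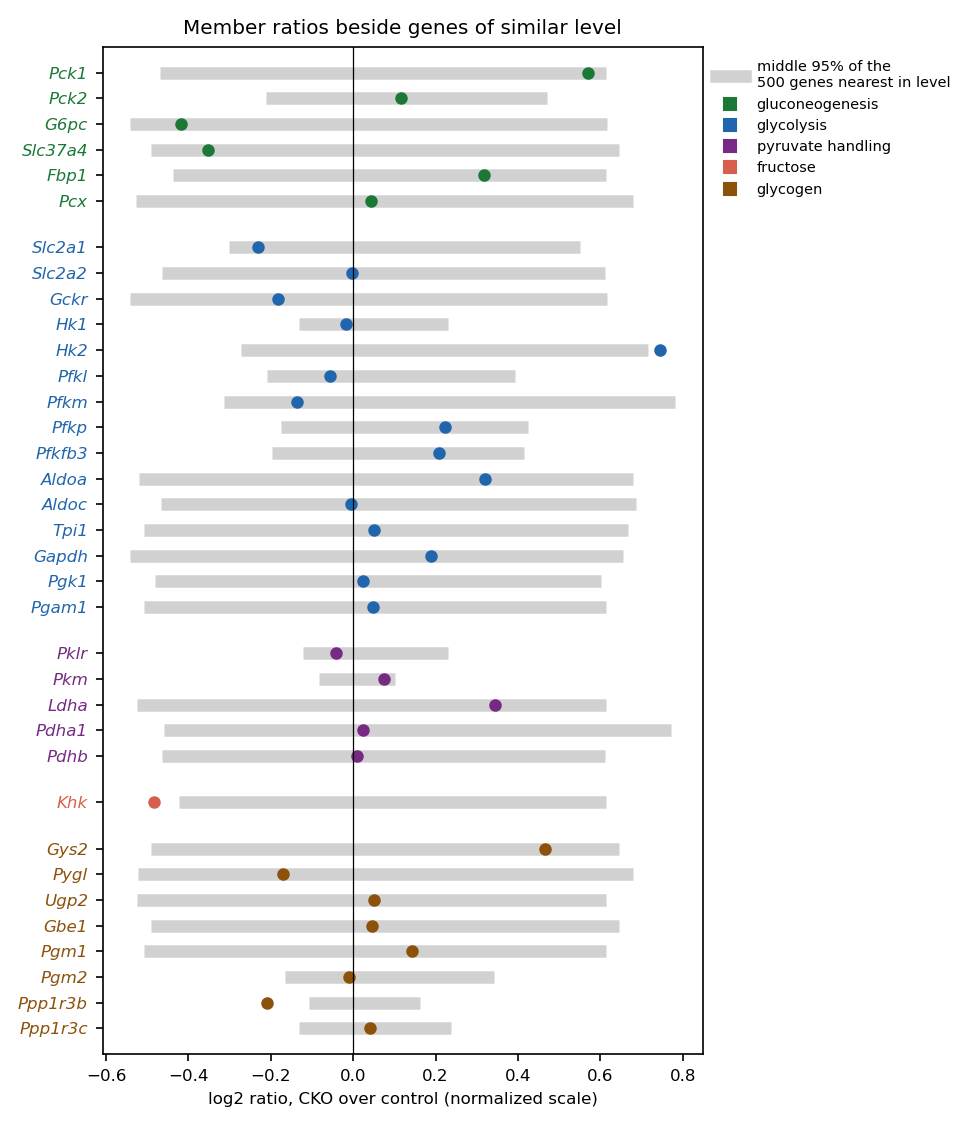
log2 ratio of each member (points, coloured by role) on the normalized scale, with the middle 95% of the ratios of the 500 genes nearest in level (grey bars). Hk2 (0.74) lies above its bar, and Khk (-0.48) and Ppp1r3b (-0.21) lie below theirs; the other 32 members are inside.

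The deposited values, which carry no offset, give larger ratios to dim members. There 4 members were at least 1.5-fold higher (Hk2, Pkm, Pfkp and Pfkfb3), beside 6.67% of all genes, and 1, Ppp1r3b, was at least 1.5-fold lower, beside 3.63%. All 5 had intensities of 20 or less on the control array. Past 2-fold were 2 higher (Hk2 and Pkm, beside 3.51%) and 1 lower (Ppp1r3b, beside 0.728%). Counted at 5 to 4, 6 were higher and 5 lower (14.8% and 17.6% of all genes), close to the background share. On that scale the median over members was -0.02 and that of all genes -0.05.

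Other genes of the same pathways were mostly level, and those past the threshold lay on both sides. Of 94 further genes with a probe, 82 were above background on both arrays. Past the 5 to 4 threshold 3 were higher (Gpt2, Cebpb and Hnf4a) and 5 lower (Tkfc, Glyctk, Srebf1, Mlxipl and Mlx), with a median of 0.01. Of all genes above background on both arrays, 4.25% were higher and 2.40% lower past it. In either direction the share was 9.76% of the 82, beside 6.65% of all genes. Tkfc, a triokinase that acts after Khk in the breakdown of fructose, read 513 and 360 (-0.42), and Glyctk, a kinase for glycerate from fructose, 251 and 172 (-0.42). They were the only genes on that list with a value here.

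Among 24 regulators above background, Mlxipl, which encodes ChREBP, read 272 and 178 (-0.48), and its partner Mlx 177 and 114 (-0.46). Srebf1, which encodes the insulin-responsive lipogenic factor SREBP-1, read 317 and 206 (-0.50). Each was below at least 489 of 500 neighbours. With the local background subtracted the sign turned for Mlx (0.19), Srebf1 (0.15) and Glyctk (0.05), and in all for 31 of the 82 genes. Of the 8 past the threshold, 3 stayed past it there: Tkfc, Cebpb and Mlxipl. The share of all genes whose sign turned was not counted. Cebpb, a factor induced in the acute phase and by cyclic AMP, read 726 and 975 (0.47). Hnf4a, a hepatocyte identity factor, read 863 and 1051 (0.33, and 0.14 with the local background subtracted).

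In the other lists 1 gene was past the threshold. It was Gpt2, a mitochondrial alanine transaminase that feeds pyruvate to gluconeogenesis, at 151 and 217 (0.43). With the local background subtracted its ratio was 0.18, under the threshold. The cytosolic transaminases Gpt (2939 and 2525) and Got1 (2669 and 2271) had ratios of -0.10 and -0.13, and G6pc2 was dim at 15 and 7. In the pyruvate list Dlat, a further subunit of pyruvate dehydrogenase, read 328 and 255 (-0.28) and Dld 394 and 446 (0.21). The lactate carriers Slc16a1 (192 and 226) and Slc16a3 (22 and 32) had ratios of 0.20 and 0.21. With the local background subtracted the sign turned for Dlat (0.33), Dld (-0.21), Slc16a1 (-0.32), Slc16a3 (-0.01) and Gpt (0.19).

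Of the other glycogen genes none passed the threshold. Gys1 read 153 and 126 (-0.20), Pygb 31 and 44 (0.23), the primer protein glycogenin Gyg 27 and 43 (0.28) and the lysosomal glucosidase Gaa 285 and 252 (-0.13). In the pentose phosphate pathway Taldo1 was 1677 and 1911 (0.25), H6pd 686 and 776 (0.24), Pgls 484 and 400 (-0.21) and Pgd 85 and 95 (0.11). Ratios of the remaining glycolysis genes stayed between -0.07 and 0.13, those of Slc2a4 and Slc2a8.

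**Figure D4:**
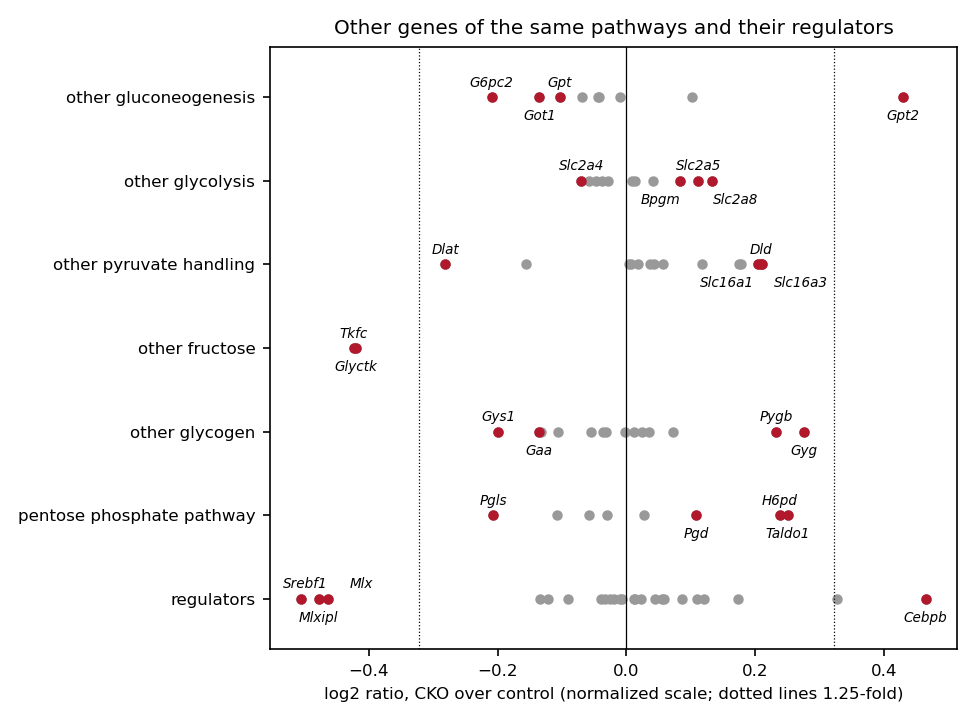
log2 ratios of CKO over control (normalized scale) of the other pathway genes and regulators above background on both arrays, 1 line of points per list, with the genes of largest ratio in each list in red and named. The fructose genes Tkfc and Glyctk (both -0.42) and the regulators Srebf1 (-0.50), Mlxipl (-0.48) and Mlx (-0.46) lie left of the dotted line that marks 5 to 4, though the sign of Glyctk, Srebf1 and Mlx turns with the local background subtracted.

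Cell markers were read on the same arrays because several members have forms that hepatocytes share with, or leave to, other cells. Most hepatocyte markers were bright, and their median ratio was 0.00 (4 higher and 4 lower of 8, summed intensity 128106 and 118170). Alb read 37445 and 36770, while Apob was dim at 27 and 20 (-0.16). Past the threshold on this list were Tat, a gluconeogenic amino acid transaminase (4834 and 3280, -0.42), and Hnf4a. That is 25% of the list, beside 6.65% of all genes. All 11 macrophage and monocyte markers above background were higher in the CKO liver and 10 passed the 5 to 4 threshold. Their median ratio was 1.02, with a summed intensity of 2667 and 8862. Among them were Marco (74 and 1707), Lyz2 (695 and 2437) and C1qa (169 and 578), while Itgam was listed on neither array and Adgre1 on the CKO array only. With the local background subtracted the sign turned for Clec4f (-0.01) and Vsig4 (-0.09), and Cd68 (0.18) and Fcgr1 (0.23) fell under the threshold. The other macrophage and monocyte markers past it stayed past it. Members with forms found in other cells lay on both sides. Hk2, Pfkp, Pfkfb3, Aldoa, Ldha and Pkm were higher, while Slc2a1 (-0.23), Pfkm (-0.14), Hk1 (-0.02) and Aldoc (-0.01) were not. With the local background subtracted the sign turned for Pfkp, Aldoa, Ldha, Pkm and Slc2a1. The part of macrophages and monocytes in the higher ones was not tested.

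Neutrophil markers (median 0.40, 5 of 5 higher, summed intensity 415 and 490) and T and NK cell markers (0.44, 4 of 4, 39 and 174) were also on the higher side. Ly6g, the neutrophil marker with the highest intensity, read 356 and 345 (0.00), lower in the deposited values. S100a9 read 15 and 50 and Cd8a 9 and 56, with ratios of 0.30 and 0.05 once the local background was subtracted, both under the threshold. The other markers past it on these lists also fell under it there: S100a8 (0.08), Csf3r (0.13), Gzma (0.09) and Cd3d (0.08). Mpo was listed on the CKO array only, and Cd3e and Klrb1c on neither. B cell markers had a median of 0.02 (57 and 68). Endothelial markers were lower in 3 of 5, with a median of -0.43 and Oit3 at 200 and 112. Cholangiocyte markers were lower in 4 of 4 (median -0.19), but their summed intensity was only 118 and 79. Krt19 read 27 and 13, Krt7 24 and 15 and Epcam 23 and 15. Only Krt19 (-0.33) was past the threshold, and with the local background subtracted it was at -0.05. Of all 14143 genes, 8166 had a ratio below 0. Stellate cell and fibroblast markers had a median of 0.04 over 6, with Dcn lower (1387 and 918) and Col3a1 higher (91.5 and 212.5). Of the skeletal muscle markers Acta1, Myh4 and Tnnt3 were listed on neither array, while Mylpf read 14 and 12 and Ckm 6 and 5. Erythroid Alas2 read 30 and 36, and of the kidney and intestine markers Fabp2 read 730 and 781 and Vil1 50 and 35, while Umod was listed on neither. Tnfaip3, the targeted gene, read 41 and 38 (-0.07), and where in the transcript its probe lies is not known here.

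**Figure D5:**
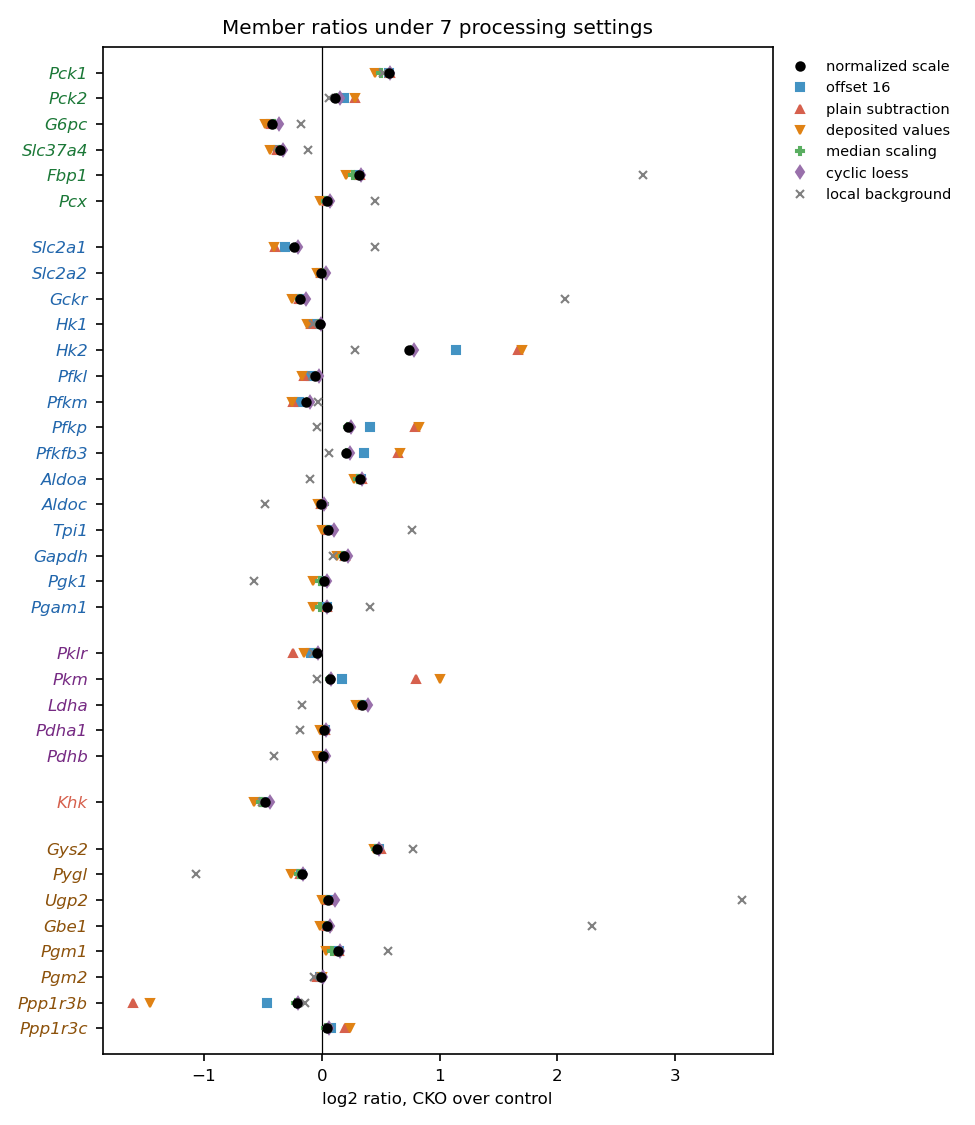
log2 ratio of CKO over control of each member under 7 processing settings, 1 symbol each. The settings nearly coincide for bright members, plain subtraction and the deposited values spread the dim ones (Hk2 up to 1.70, Ppp1r3b down to -1.60), and the local background column (crosses) stands apart for Ugp2 (3.57), Fbp1 (2.73), Gbe1 (2.30) and Gckr (2.06).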

How the data were processed

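Per the file headers, the scanner files give intensity as a median over the spot, and another over its surroundings, in 1 colour scanned at 3 gains. Per the labels, amplified aRNA was coupled to Cy5; the making of the deposited value table is not described. Set against the scanner values, its deposited intensities are linear in the spot intensity (slope 0.859 control, 0.825 CKO, level subtracted 67.1 and 69.2) to within 1.54 units.

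Intensities were corrected with normexp against the mean of 384 blank spots per array (67.2 and 69.3) with an offset of 50, control spots and 4 marked as bad were left out, then quantile normalization and log2 followed (limma 3.58.1, R 4.3.3). The local background column was not used, since across spots it followed the spot's own log2 signal (r = 0.988 and 0.972). A gene was above background where a probe exceeded the blank mean plus 2 SD (69.5 and 72.2). Median gene spots were 81.1 and 84.0. Gene names came from the platform annotation (20686 probes with a symbol), and promoter windows from RefSeq. Entrez IDs of 20556 probes were found in RefSeq and were used only to look up chromosomes.

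Genes were counted past a fixed fold, in place of a test. All members are named, with the 4 largest absolute ratios of each further pathway list, marker genes from the 3 largest of each marker list, and Tnfaip3. Exceptions were chosen after their values were seen: Hkdc1, Alb, Ly6g, Cd68, Clec4f, Vsig4, Fcgr1 and the markers listed on 1 array or neither. Members and lists were chosen with earlier results of these data known. The procedure was tested on simulated arrays. Known differences were placed there only in genes clearly above the blank level, so genes near that level were not covered. The simulated spot noise was also set below that of the positive controls.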

Additional observations from a re-analysis of the deposited data

How the results depend on the processing

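Median scaling and cyclic loess moved no member by as much as the SD between probes (0.13). No filter on dim genes, a limit of 3 blank SDs, the brightest probe and a filter at the median level (26 members left) could not move a member's ratio. The filters act after normalization, and each member was read by 1 probe, so equal ratios there say nothing about stability. None of the 7 members past 5 to 4 changed sign with an offset of 16, plain subtraction of the blank mean, the deposited table, median scaling or cyclic loess, where Pck1 ranged from 0.45 to 0.58, Gys2 from 0.44 to 0.50, Khk from -0.58 to -0.44 and Hk2 from 0.74 to 1.70. The number higher by 5 to 4 or more was 7 with an offset of 16, 8 with plain subtraction, 6 with cyclic loess and 11 against the local background column, and the number lower was 5 with plain subtraction, against the local background and in the deposited table. The share of all genes past 5 to 4 in either direction also moved, from 6.65% to 11.4% (offset 16), 31.6% (plain subtraction), 19.7% (local background) and 32.4% (deposited table). At 1.5-fold, 4 were higher with plain subtraction, 4 in the deposited table and 6 against the local background, and 1 was lower in each of these settings, beside 11.2%, 10.3% and 9.99% of all genes in either direction against 2.11%.

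Against the local background column Ldha changed sign (-0.16), 21 other members moved by more than 0.13, and the medians were 0.26 for gluconeogenesis, -0.16 for pyruvate handling and 0.31 for glycogen. There 10 of 35 members had the opposite sign, which besides Ldha were Gckr (2.06), Pgk1 (-0.57), Slc2a1 (0.45), Pdhb (-0.41), Pdha1 (-0.18), Aldoa (-0.10), Pfkp (-0.04), Pkm (-0.04) and Slc2a2 (0.01). The share of all genes whose sign turned was not counted, so this number does not set members apart from other genes. Of the 7 members past 5 to 4, Pck1 (0.52), Gys2 (0.77) and Khk (-0.51) stayed past it, and 4 did not: Ldha, Hk2 (0.28), G6pc (-0.17) and Slc37a4 (-0.12). The cause was not tested. Signal over background limits Hk1, Pklr, Pkm, Pgm2, Ppp1r3b and Ppp1r3c, all at deposited intensities of 15 or less. No paired analysis was possible because each genotype has 1 array.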
